A study of Homo sapiens with 6 samples.

Results

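The 10 genes of neuronal filaments and growth cones described here were followed across the 6 libraries of a C17orf80 knockout study in HEK-293T cells. They are INA, NEFL, NEFM, NEFH, PRPH, NES, GAP43, STMN2, UCHL1 and TUBB3, that is 10 of the 62348 gene identifiers in the count tables. INA and NEFL were chosen by their values in this comparison, INA because it had no counts in WT and NEFL because it was lower in the libraries labelled knockout. Their values are therefore given as a description, with no test. The other 8 were named by what their proteins do, though with earlier results of these data known. Tests are given for those with enough counts. The study sequenced poly(A)-selected RNA from 3 libraries labelled knockout (KO), which received a guide RNA against C17orf80, and from 3 wild-type (WT) libraries, which received a non-targeting guide. HEK-293T is a transformed cell line of human embryonic kidney origin, grown here in standard medium with serum. Per the labels, the knockout line was selected with puromycin for monoclonal cells. How many clones it holds is not stated, so a difference between clones and an effect of the guide cannot be told apart. Separate cultures behind the 3 libraries of each group are not stated either, and the p-values then measure library-to-library spread alone, which may be technical.

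Neuronal intermediate filaments are built from NEFL, NEFM and NEFH, the light, medium and heavy neurofilament chains, together with alpha-internexin (INA) or peripherin (PRPH). In neurons the light chain or alpha-internexin forms the core of the filament, and the medium and heavy chains add side arms that space the filaments in the axon. Nestin (NES) is the intermediate filament of neural progenitors. Growth cones, the moving tips of axons, are rich in GAP43 and in the microtubule-destabilising protein STMN2, and the ubiquitin hydrolase UCHL1 and the beta-tubulin TUBB3 are common neuronal markers. HEK cells are known for carrying some neuronal transcripts.

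The promoters of 3 members are shown because the genes differed in pattern: INA had counts in 1 group only, PRPH had very few counts in either group, and GAP43 was lower in the libraries labelled KO. Each run is the 250 bases before the RefSeq start on build GRCh38.p14, written 5′ to 3′ on the strand of the gene (the forward strand for all 3), with CG dinucleotides in capitals. INA lies at chr10:103276888-103277137, PRPH at chr12:49294897-49295146 and GAP43 at chr3:115623260-115623509.
INA: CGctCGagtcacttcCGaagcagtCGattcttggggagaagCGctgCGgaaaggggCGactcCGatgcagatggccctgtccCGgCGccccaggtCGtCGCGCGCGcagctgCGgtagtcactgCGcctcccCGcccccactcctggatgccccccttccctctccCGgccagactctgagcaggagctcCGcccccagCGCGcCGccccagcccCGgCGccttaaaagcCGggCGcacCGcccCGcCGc
PRPH: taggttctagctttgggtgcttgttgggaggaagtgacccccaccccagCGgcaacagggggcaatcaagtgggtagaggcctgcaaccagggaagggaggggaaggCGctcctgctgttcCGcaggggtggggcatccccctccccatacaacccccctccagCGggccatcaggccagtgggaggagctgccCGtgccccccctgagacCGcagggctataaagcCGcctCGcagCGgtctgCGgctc
GAP43: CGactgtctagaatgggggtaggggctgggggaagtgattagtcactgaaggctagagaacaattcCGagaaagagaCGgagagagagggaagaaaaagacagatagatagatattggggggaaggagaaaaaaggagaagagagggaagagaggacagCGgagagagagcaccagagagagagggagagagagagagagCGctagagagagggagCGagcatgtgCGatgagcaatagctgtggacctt

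The INA window held 30 CG dinucleotides, PRPH 10 and GAP43 7, beside a median of 11 over 35116 RefSeq promoter windows of the same length. With both strands searched and overlapping matches allowed, the INA window held 4 matches to GGGCGG, the GC box bound by Sp1, and the PRPH and GAP43 windows 0; 42.6% of all windows had a match. Each GC box match contains a CG that is also counted above. TATAAA matched once in PRPH and not in INA or GAP43 (10.7% of all windows). RE1, the element bound by the neuronal gene repressor REST, was searched by its left part and its right part. The left part, CAGCACC, matched in none of the 3 windows (6.16% of all windows). The right part, GGACAG, matched 1 time in INA and 1 time in GAP43 and not in PRPH (17.2% of all windows). A match describes letters in a window and is not a binding site. Windows were found for 6 of the 10 members, and NEFL was not among them. Of the windows not shown, that of NES held 1 match to CAGCACC and those of UCHL1 and TUBB3 held 0. A TUBB3 window held 1 match to GGACAG, and the NES and UCHL1 windows 0.

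Gene counts per library ranged from 15942017 to 16122771 in the libraries labelled KO and from 14982340 to 16278091 in WT. C17orf80 RNA was present in each library labelled KO, at 763, 699 and 698 counts against 397, 451 and 476 in WT, and was higher there (log2 fold change 0.78 ± 0.17 (SE), edgeR adjusted p = 0.0232). It was also higher without replicate 1 labelled KO (0.64). The transcript was thus not reduced where the label says knockout, and the group is named by its label throughout. Replicate 1 labelled KO stood apart: it correlated with replicates 2 and 3 of its group at Pearson's r of 0.932 and 0.945 on log2 CPM across genes, against 0.987 between those 2 and 0.988 for each WT pair. The mitochondrial share of gene counts was 11.9% there, compared with 4.53% and 5.00% for the other libraries labelled KO and 4.65% to 4.71% in WT. Results that turn on it are given with and without it. In bulk RNA, fewer cells with a transcript and less of it per cell cannot be told apart.

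INA, the alpha-internexin gene (ENSG00000148798, chromosome 10, positions 103277138 to 103290346 on GRCh38), had 459, 393 and 411 counts in replicates 1 to 3 labelled KO, against 0, 0 and 0 in WT. Scaled to library depth by TMM (trimmed mean of M values) and given as CPM, it stood at 33.8, 23.8 and 24.6 CPM in the libraries labelled KO. The groups were fully apart, and replicate 1 was the highest of its group. The mean was 27.4 ± 5.58 CPM (SD, n = 3). With 3 counts over the group set in place of 0, which is a limit of 0.0617 CPM in WT for counting error only, INA was at least 438-fold higher. Of the 17452 genes tested, 43 were called higher with 0 counts in each WT library, 0.246% of them.

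NEFL, the light chain (ENSG00000277586, chromosome 8, positions 24950955 to 24956612), had 1155, 1045 and 1014 counts in the libraries labelled KO, against 3000, 3175 and 3263 in WT. In CPM these were 85.2, 63.3 and 60.8 in the libraries labelled KO and 195, 188 and 199 in WT. Each library labelled KO was below each WT library, and replicate 1 was again the highest of its group. The means were 69.7 ± 13.4 CPM in the libraries labelled KO and 194 ± 5.69 CPM in WT (SD, n = 3 each), so NEFL was 2.78-fold lower in the libraries labelled KO. The log2 fold change was -1.48 ± 0.17 (SE), and -1.64 without replicate 1 labelled KO.

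NEFM, the medium chain (ENSG00000104722, positions 24913761 to 24919093), lies 31861 bases from NEFL on chromosome 8 and showed no such difference. Its counts were 1858, 2339 and 2252 in the libraries labelled KO and 2227, 2395 and 2478 in WT, which is 137, 142 and 135 CPM in the libraries labelled KO against 144, 142 and 151 CPM in WT. The groups met at nearly the same level, with replicate 2 labelled KO just under replicate 2 of WT. NEFM did not pass the edgeR quasi-likelihood test (log2 fold change -0.082 ± 0.12 (SE), adjusted p = 0.659), and did not without replicate 1 labelled KO (-0.069 ± 0.067, adjusted p = 0.432).

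**Figure D1:**
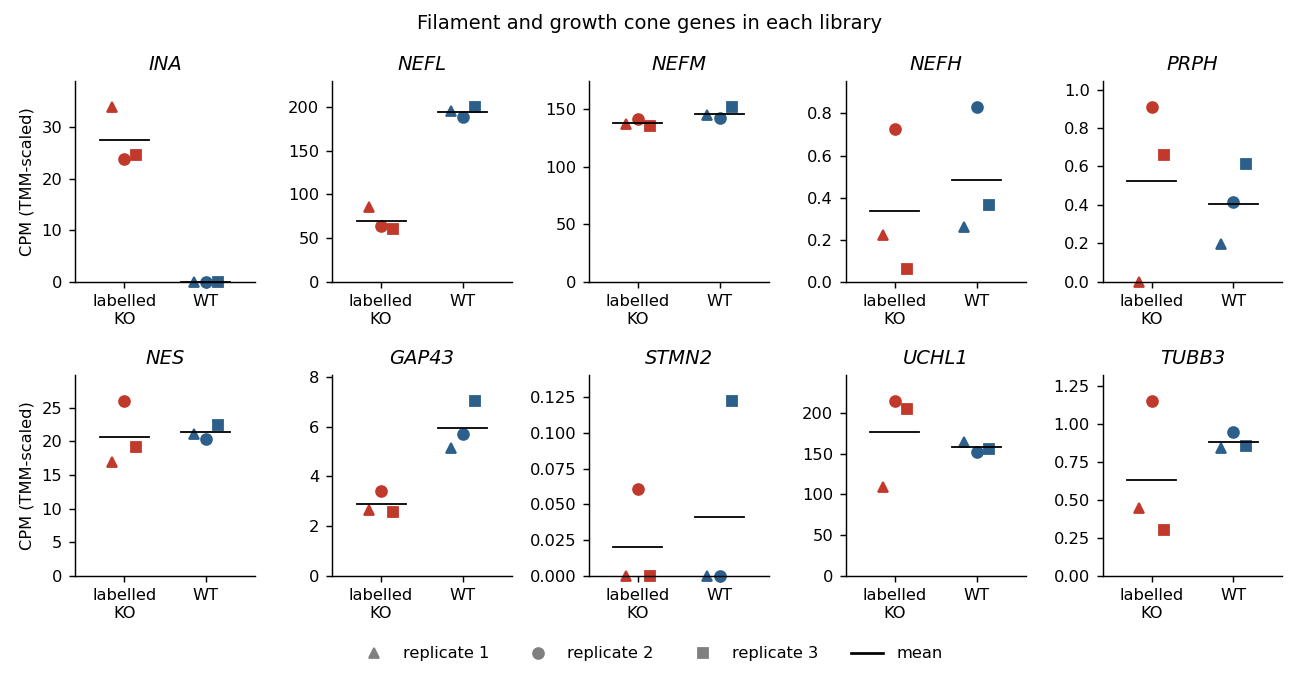
TMM-scaled CPM of each gene (vertical axes from 0, on a scale of their own per gene) in the 3 libraries labelled KO (red, left) and the 3 WT libraries (blue, right), with the symbol giving the replicate and the line the mean. INA is at 0 in WT, NEFL and GAP43 are lower in each library labelled KO, and NEFM lies between 135 and 151 CPM throughout.

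The ratio of the counts of 2 genes within a library needs no scaling between libraries. NEFL had 0.622, 0.447 and 0.450 counts per NEFM count in the libraries labelled KO and 1.35, 1.33 and 1.32 in WT, with means of 0.506 ± 0.09996 in the libraries labelled KO and 1.33 ± 0.0156 in WT (SD, n = 3 each). INA had 0.247, 0.168 and 0.183 counts per NEFM count in the libraries labelled KO and 0 in WT. The WT libraries were nearly alike in the NEFL ratio, and among the libraries labelled KO replicate 1 was the highest in both ratios. These ratios compare groups and say nothing of which gene is more abundant, since the counts are not corrected for transcript length.

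**Figure D2:**
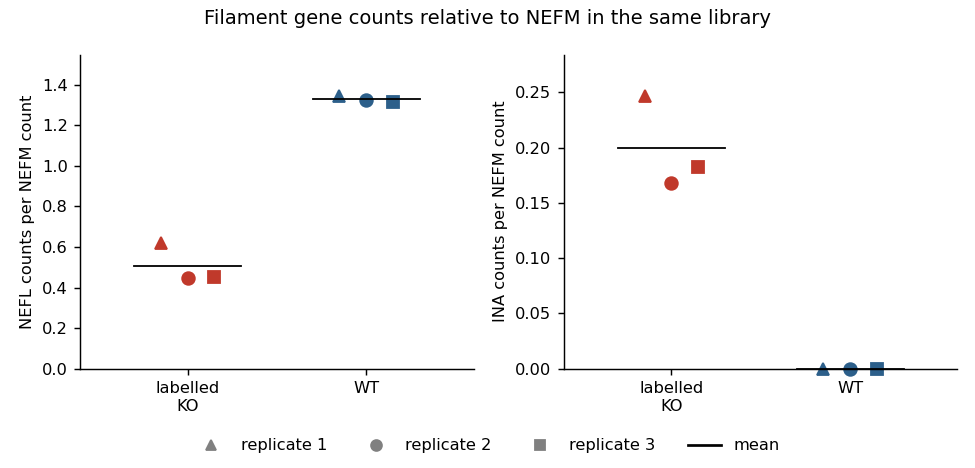
Counts of NEFL (left) and INA (right) per NEFM count of the same library, for the libraries labelled KO (red) and WT (blue), with symbols for replicates and lines for means. The NEFL ratio averages 0.506 in the libraries labelled KO and 1.33 in WT, and the INA ratio is 0 in each WT library.

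Peripherin and nestin showed no difference that passed the test, and the heavy chain was too low for the test over all libraries. NEFH (ENSG00000100285, chromosome 22) had 3, 12 and 1 counts in the libraries labelled KO and 4, 14 and 6 in WT, too few to pass the filter on low counts, and the groups overlapped. It passed the filter without replicate 1 labelled KO and was not called there (log2 fold change -0.31 ± 0.79 (SE), edgeR adjusted p = 0.788). PRPH (ENSG00000135406, chromosome 12) had 0, 15 and 11 counts in the libraries labelled KO and 3, 7 and 10 in WT (log2 fold change 0.39 ± 0.93 (SE), edgeR adjusted p = 0.795). Replicate 1 labelled KO was its lowest library and replicate 2 labelled KO its highest, so the groups overlapped. The span of PRPH overlaps the antisense gene TROAP-AS1, which had 12, 23 and 9 counts in the libraries labelled KO and 11, 20 and 8 in WT. The counting was not stated to use strand. Without strand, reads shared by both genes would be given to neither, so PRPH may be undercounted. NES (ENSG00000132688, chromosome 1) stood at 16.9, 26.0 and 19.1 CPM in the libraries labelled KO and at 21.2, 20.4 and 22.5 CPM in WT. The WT libraries lay inside the range of the libraries labelled KO (log2 fold change -0.045 ± 0.19 (SE), edgeR adjusted p = 0.888).

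Of the growth cone genes, GAP43 fell and STMN2 had almost no counts. GAP43 (ENSG00000172020, chromosome 3, positions 115623510 to 115721483), a membrane-bound protein kinase C substrate of growth cones, had 36, 56 and 43 counts in the libraries labelled KO and 79, 96 and 115 in WT. In CPM it was at 2.65, 3.39 and 2.58 in the libraries labelled KO and at 5.13, 5.69 and 7.03 in WT, so the groups did not overlap. The means were 2.87 ± 0.448 CPM in the libraries labelled KO and 5.95 ± 0.978 CPM in WT (SD, n = 3 each; log2 fold change -1.05 ± 0.25 (SE), edgeR adjusted p = 0.0316). The call is close to the threshold: the edgeR adjusted p was 0.0987 without replicate 3 labelled KO and 0.0943, 0.112 and 0.144 without WT replicates 1, 2 and 3, while it was 0.00203 without replicate 1 labelled KO. STMN2 (ENSG00000104435, chromosome 8) had 0, 1 and 0 counts in the libraries labelled KO and 0, 0 and 2 in WT, which is at the floor of 3 counts over a group, and no fold was drawn from it.

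UCHL1 and TUBB3, the 2 general neuronal markers, did not pass the test over all libraries. UCHL1 (ENSG00000154277, chromosome 4, positions 41256928 to 41268455) had 1485, 3547 and 3424 counts in the libraries labelled KO and 2542, 2572 and 2542 in WT. In CPM it was at 109.5, 215 and 205 in the libraries labelled KO and at 165, 152 and 155 in WT. Replicate 1 labelled KO was below each WT library, and replicates 2 and 3 above each (log2 fold change 0.16 ± 0.25 (SE), edgeR adjusted p = 0.674). Without replicate 1 labelled KO it was called higher (0.42 ± 0.07, edgeR adjusted p = 8.93e-06), so this 1 library decides the call. TUBB3 (ENSG00000258947, chromosome 16) had 6, 19 and 5 counts in the libraries labelled KO and 13, 16 and 14 in WT, with overlapping groups (-0.47 ± 0.55, edgeR adjusted p = 0.577). TUBB, the main beta-tubulin of dividing cells, was likewise counted at only 0.246 ± 0.175 CPM in the libraries labelled KO and 0.248 ± 0.220 CPM in WT, and 9.74% to 12.5% of counted reads were ambiguous between annotated genes and given to none. Whether TUBB3 reads were among them was not tested.

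Among the 8 that were not chosen by value, 6 passed the filter on low counts, GAP43 was called lower and 0 were called higher. Over all 17452 genes tested, 8.64% were called higher and 6.50% lower, 15.1% in either direction, by edgeR at an adjusted p under 0.05. INA and NEFL are called as well, in opposite directions, as their choice fixes. Without replicate 1 labelled KO, UCHL1 was called higher and GAP43 lower among 7 of the 8, in a fit that called 22.3% of all genes higher and 21.7% lower, 44.0% in either direction. Of the 6 tested over all libraries, NEFM and GAP43 were lower in each library labelled KO than in any WT library and 0 were higher in each, and over all genes tested 24.1% were lower and 23.5% higher in this way.

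**Figure D3:**
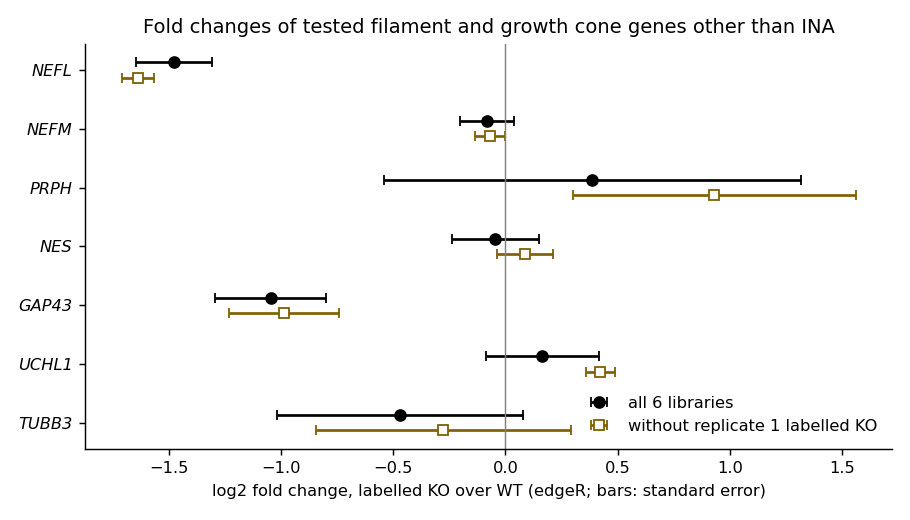
Log2 fold change (horizontal axis, labelled KO over WT) of the 7 tested genes other than INA, with standard errors, over all 6 libraries (filled) and without replicate 1 labelled KO (open). INA is not drawn because its fitted fold change depends on the prior count. NEFL and GAP43 lie well below 0, NEFM and NES near 0, and UCHL1 is at 0.16 over all libraries and 0.42 without replicate 1 labelled KO.

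Of 16 tested genes among 18 in the list of growth cone proteins, stathmins and collapsin response mediators, 7 fell and 0 rose, beside 6.50% lower and 8.64% higher over all genes tested. The list was chosen with earlier results of these data known. Of the 16, 15 had a negative log2 fold change, and the median was -0.63 against 0.0055 over all genes tested. L1CAM, an axonal adhesion molecule, was at 1.44 ± 0.616 CPM in the libraries labelled KO and 6.16 ± 0.680 CPM in WT (SD, n = 3 each; log2 fold change -2.09 ± 0.36 (SE), edgeR adjusted p = 0.0112), a call that was lost without each WT library in turn. DPYSL4, a collapsin response mediator, was at 12.98 ± 2.84 CPM in the libraries labelled KO and 34.6 ± 1.12 CPM in WT (-1.41 ± 0.19, edgeR adjusted p = 0.00471). FEZ1, a kinesin adaptor for axonal transport, was at 18.2 ± 1.97 CPM in the libraries labelled KO and 44.3 ± 1.87 CPM in WT (-1.28 ± 0.15, edgeR adjusted p = 0.00256). The other 4 were the stathmins STMN1 and STMN3, the actin-regulating protein MARCKS and the mediator DPYSL5, named here to complete the count, with log2 fold changes of -0.75, -1.26, -0.69 and -0.57. CNTN2, an axonal adhesion protein at 0.988 ± 0.429 CPM in the libraries labelled KO and 0.379 ± 0.338 CPM in WT, was the 1 tested gene with a positive log2 fold change (1.37 ± 0.87 (SE), edgeR adjusted p = 0.305). Without replicate 1 labelled KO 11 were called lower and 0 higher, in a fit that called 21.7% of all genes lower. Without replicate 3 labelled KO 3 were called lower, beside 397 of all 18102 genes tested. Without WT replicates 1, 2 and 3 it was 2 each, beside 246 of 18268, 244 of 18151 and 243 of 18213 genes. Over all libraries left out in turn the list had medians between -0.66 and -0.58.

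Other filament genes and the proteins that link, carry or degrade filaments mostly did not pass over all libraries. Of 9 tested other intermediate filament genes, SYNM rose and 0 fell, beside 8.64% higher and 6.50% lower over all genes. SYNM, whose large filament protein synemin co-assembles with vimentin and desmin, was at 7.67, 8.29 and 9.29 CPM in the libraries labelled KO and 0.584, 1.01 and 1.16 CPM in WT (log2 fold change 3.18 ± 0.30 (SE), edgeR adjusted p = 0.00126). Of 12 linker and turnover genes 2 fell and 0 rose, beside the same shares. Without replicate 1 labelled KO 6 linker and turnover genes rose and 3 fell, and 2 other filament genes rose and 2 fell. That fit called 22.3% of all genes higher and 21.7% lower. KIF5A, a neuronal kinesin heavy chain that carries neurofilament cargo, was at 21.6 ± 1.96 CPM in the libraries labelled KO and 51.2 ± 5.02 CPM in WT (-1.24 ± 0.15, edgeR adjusted p = 0.0032). PLEC, a cytolinker of intermediate filaments, was at 159 ± 23.4 CPM in the libraries labelled KO and 269 ± 10.1 CPM in WT (-0.76 ± 0.15, edgeR adjusted p = 0.0173); its call was lost without replicate 3 labelled KO and without each WT library in turn.

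Few microtubule genes were called over all libraries, some in each direction among the neuronal microtubule genes and none among the tubulins. Of 11 tested neuronal microtubule genes 2 rose and 1 fell, beside 8.64% higher and 6.50% lower over all genes. Without replicate 1 labelled KO 5 rose and 3 fell, beside 22.3% higher and 21.7% lower over all genes. KIF1A, a kinesin that carries synaptic vesicle precursors, was at 117, 114 and 100.1 CPM in the libraries labelled KO and 16.0, 16.8 and 15.7 CPM in WT (log2 fold change 2.77 ± 0.14 (SE), edgeR adjusted p = 0.000145), the groups far apart. DCLK2, a doublecortin-like kinase, was at 22.6 ± 2.23 CPM in the libraries labelled KO and 6.32 ± 0.723 CPM in WT (1.84 ± 0.18, edgeR adjusted p = 0.00132). MAP6, which stabilises microtubules, was at 2.53 ± 0.507 CPM in the libraries labelled KO and 5.97 ± 1.19 CPM in WT (-1.23 ± 0.27, edgeR adjusted p = 0.0256), a call that was lost without replicate 2 or 3 labelled KO or any WT library. Of 11 tested tubulins 0 rose and 0 fell, and without replicate 1 labelled KO 2 rose and 3 fell, a share near the 44.0% of all genes called in that fit. TUBB4B was at 418 ± 54.7 CPM in the libraries labelled KO and 366 ± 13.8 CPM in WT. TUBA1C was at 275 ± 30.5 CPM in the libraries labelled KO and 221 ± 8.62 CPM in WT, and both were among those called higher without that library. Of the 5 genes of the UCHL1 family and of free ubiquitin 0 rose and 0 fell, and without replicate 1 labelled KO, where 44.0% of all genes were called, 3 rose and 1 fell. The deubiquitinase BAP1, then called higher, was at 211 ± 21.3 CPM in the libraries labelled KO and 184 ± 7.10 CPM in WT.

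**Figure D4:**
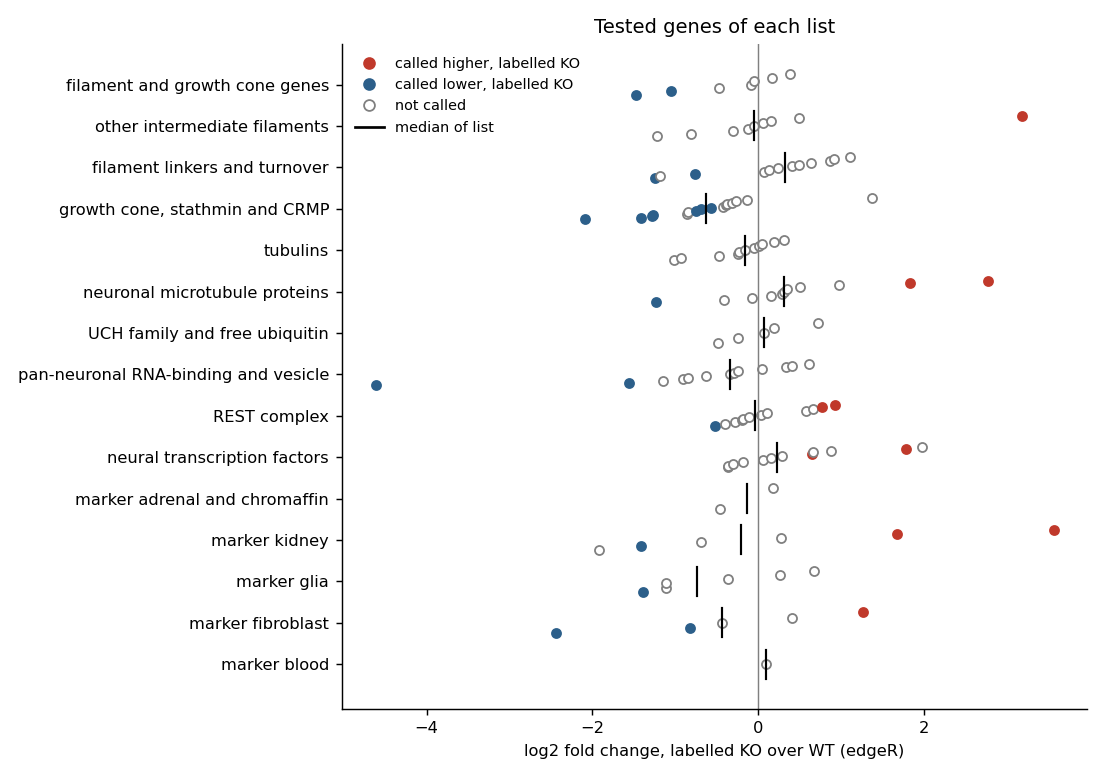
Log2 fold change (horizontal axis, labelled KO over WT) of the tested genes of each list, with red for genes called higher, blue for genes called lower, open circles for genes not called and a black line for the median of each list below the first. INA is not drawn. The growth cone list has 7 genes called lower and 0 higher, whereas the microtubule list has 2 higher and 1 lower.

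Genes used to tell neurons, and regulators of neuronal genes, are given next, beside 15.1% called in either direction over all genes tested. Of the tested pan-neuronal genes 15.4% were called, of the REST complex 25% and of the neural transcription factors 16.7%. Of 13 tested pan-neuronal RNA-binding and vesicle genes among 21, 2 fell and 0 rose, beside 6.50% lower and 8.64% higher over all genes. Without replicate 1 labelled KO 5 fell and 2 rose, beside 21.7% lower and 22.3% higher over all genes. NOVA2, a neuronal splicing factor, was at 6.62 ± 0.976 CPM in the libraries labelled KO and 19.5 ± 2.34 CPM in WT (log2 fold change -1.56 ± 0.19 (SE), edgeR adjusted p = 0.00329). Some neuronal markers were at or near 0 in both groups: ELAVL4 had 0 counts in all 6 libraries, DCX at most 0.0605 CPM and SNAP25 at most 0.389 CPM. Other markers of the pan-neuronal list were present. RBFOX3 was at 1.47 to 4.54 CPM in the libraries labelled KO and 3.24 to 5.04 CPM in WT. In the same order, ENO2 was at 18.9 to 48.1 and 28.2 to 29.9 CPM. SYT1 was at 15.4 to 24.3 and 10.8 to 14.4 CPM, and VAMP2 at 23.9 to 39.8 and 50.7 to 56.1 CPM. None of these passed over all libraries. Without replicate 1 labelled KO, ENO2 and SYT1 were called higher and VAMP2 lower. SYP, a synaptic vesicle protein, was present at 7.60 to 16.3 CPM in the libraries labelled KO and 14.4 to 17.8 CPM in WT and did not pass the test.

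Of 12 tested genes of the REST repressor complex 2 rose and 1 fell, beside 8.64% and 6.50% of all genes. Without replicate 1 labelled KO 4 rose and 4 fell, beside 22.3% and 21.7% of all genes. The corepressor RCOR1 was at 117 ± 18.5 CPM in the libraries labelled KO and 61.2 ± 2.18 CPM in WT (log2 fold change 0.93 ± 0.16 (SE), edgeR adjusted p = 0.0103). Its relative RCOR3 was at 68.0 ± 17.4 CPM in the libraries labelled KO and 39.8 ± 3.22 CPM in WT (0.77 ± 0.20, edgeR adjusted p = 0.0445). The histone deacetylase HDAC1 was at 364 ± 44.2 CPM in the libraries labelled KO and 520.3 ± 8.16 CPM in WT (-0.51 ± 0.14, edgeR adjusted p = 0.0474). All 3 calls were lost without each WT library in turn, and those of RCOR3 and HDAC1 without replicate 3 labelled KO, and that of HDAC1 without replicate 2 labelled KO. REST itself was at 119, 66.2 and 75.7 CPM in the libraries labelled KO and 52.7, 60.7 and 61.2 CPM in WT, the groups not overlapping but the difference not past the test (0.58 ± 0.23, edgeR adjusted p = 0.133). Without replicate 1 labelled KO it passed (0.29, edgeR adjusted p = 0.00831). Of 12 tested neural transcription factors 2 rose and 0 fell, beside 8.64% higher and 6.50% lower over all genes. Without replicate 1 labelled KO 8 of 13 rose and 0 fell, beside 22.3% higher and 21.7% lower over all genes. The median log2 fold change was 0.23 over all libraries and 0.52 without that library. Without each other library in turn 1 rose and 0 fell. POU3F2, a POU-domain factor of neural progenitors, was at 67.5, 62.1 and 61.5 CPM in the libraries labelled KO and 18.6, 16.7 and 19.99 CPM in WT (1.79 ± 0.14, edgeR adjusted p = 0.00067). SOX4 was at 292 ± 39.2 CPM in the libraries labelled KO and 186 ± 1.61 CPM in WT (0.65 ± 0.14, edgeR adjusted p = 0.0256), a call lost without replicate 2 or 3 labelled KO or any WT library.

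The neighbours of INA did not share its pattern. Of the 3 annotated protein-coding genes on each side, CNNM2, NT5C2, PCGF6, TAF5 and ATP5MK were tested and none passed edgeR, with log2 fold changes from -0.11 to 0.29. RPEL1, a retrogene next to INA, had 2, 10 and 4 counts in the libraries labelled KO and 1, 2 and 3 in WT and was not tested. Around NEFL, ADAMDEC1 and ADAM7 had 0 counts in each library, and NEFM, GNRH1 and KCTD9 did not pass. DOCK5, a Rac activator on the far side of NEFL from NEFM, had 1114, 585 and 555 counts in the libraries labelled KO and 313, 359 and 339 in WT. It did not pass over all libraries (1.27, edgeR adjusted p = 0.0511) and was called higher without replicate 1 labelled KO, opposite in direction to NEFL.

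**Figure D5:**
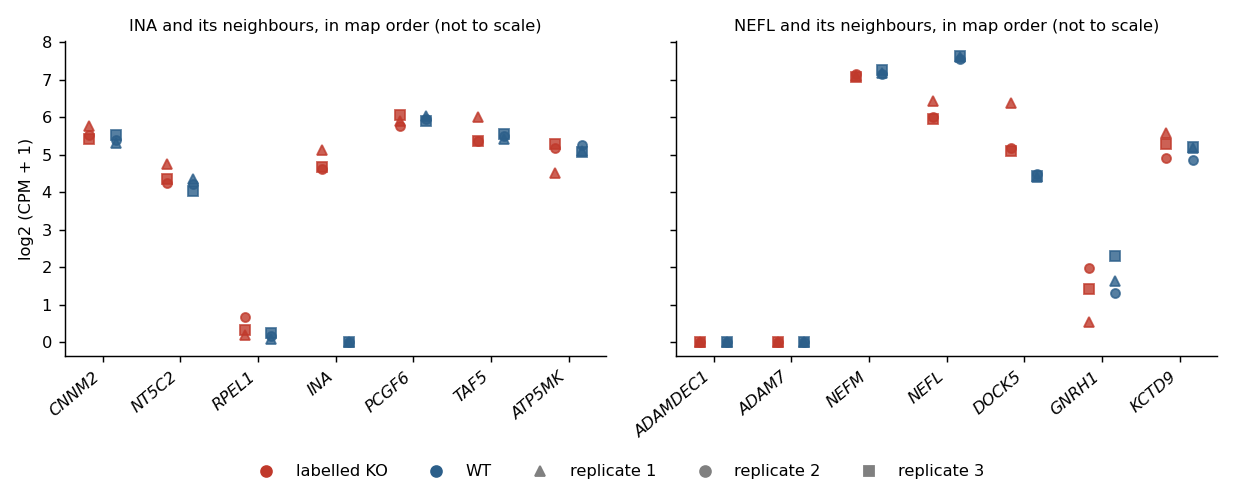
Level on a log2 (CPM + 1) scale of INA (left) and NEFL (right) with 3 protein-coding neighbours on each side in map order, for the libraries labelled KO (red) and WT (blue), with symbols for replicates. INA alone among its neighbours is at 0 in WT and expressed in the libraries labelled KO, and NEFL is lower beside a level NEFM.

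The genes nearest to INA and NEFL in pattern were found by the distance between their 6 mean-centred log2 CPM values, over 12991 protein-coding genes tested. EPDR1, SLC7A3, DTX3L, PNPLA4 and LRFN5 were nearest to INA, at distances of 0.77, 1.10, 1.17, 1.22 and 1.36. Each had at most 3 counts over the WT libraries, against 168 or more in each library labelled KO. LRFN5, the farthest of these 5, encodes a synaptic adhesion molecule, and what the others near INA do is not described here. HPCAL4, TSPAN2, ST6GALNAC3, MBP and NOVA2 were nearest to NEFL, at 0.15, 0.18, 0.27, 0.29 and 0.31. HPCAL4, a neuronal calcium sensor, was at 20.1, 13.1 and 12.9 CPM in the libraries labelled KO and 44.4, 41.8 and 45.3 CPM in WT. None of the other members was among either 5. The likeness rests on 6 libraries in 2 groups and is a description.

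Markers of other cell types are given by list, beside 8.64% higher and 6.50% lower over all genes. Of 12 adrenal and chromaffin markers, a lineage often named for HEK cells, 2 were tested, 0 were called, and TH and CYP11A1, which make catecholamines and steroids, had 0 counts in all 6 libraries. Their summed level was 11.6 to 15.3 CPM in the libraries labelled KO and 10.7 to 14.9 CPM in WT, of which CHRNA3, a nicotinic receptor subunit, gave 9.44 to 12.7 CPM in the libraries labelled KO and 8.83 to 12.0 CPM in WT. Of 13 kidney markers 6 were tested, with LRP2 and WT1 higher and EYA1 lower. LRP2, the endocytic receptor megalin, was at 191, 83.7 and 93.8 CPM in the libraries labelled KO and 9.21, 11.9 and 9.90 CPM in WT. The summed kidney level was 154 to 243 CPM in the libraries labelled KO and 70.3 to 75.4 CPM in WT. Most of the difference between these sums was LRP2 alone. UMOD, a marker of the mature nephron, was at 0. Of 9 glial markers 6 were tested and MBP fell, with sums of 60.6 to 96.8 CPM in the libraries labelled KO and 110.1 to 110.9 CPM in WT. Most of each sum was CNP, a myelin enzyme, which did not pass (edgeR adjusted p = 0.231). Of 9 fibroblast markers 5 were tested, LUM rose and COL3A1 and COL1A1 fell, with sums of 83.2 to 110.5 CPM in the libraries labelled KO and 139 to 149.7 CPM in WT, and COL1A2 at 0. The calls of MBP, LUM and COL1A1 were lost without replicate 3 labelled KO and without each WT library in turn, and that of MBP also without replicate 2 labelled KO. Of 7 blood markers 1 was tested and 0 were called, with PTPRC at 0 and sums of 1.77 to 4.90 CPM in the libraries labelled KO and 3.24 to 3.70 CPM in WT. The part of these marker differences in the values of the filament genes was not tested.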

How the data were processed

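Poly(A)-selected RNA of 3 libraries labelled KO and 3 WT libraries was analysed. The deposited gene tables hold raw counts per gene and library. Per the submitters' processing notes, the tools included the aligner HISAT2 2.2.1 and the counter HTSeq 0.12.4, on build GRCh38. Counting options, strand use among them, are not given. Per-base mitochondrial coverage was not used. Reads in no feature (8.75% to 15.9% of counted reads) and ambiguous reads (9.74% to 12.5%) stayed out of library sizes. A read shared between annotated genes is then lost to each, which lowers such genes.

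The main test was the quasi-likelihood F test of edgeR 4.0.16 (R 4.3.3) on group, after filterByExpr and TMM scaling, with Benjamini-Hochberg adjustment over 17452 genes at 0.05. The filter kept 8 of the 10 members. Errors are SD over 3 libraries for levels and SE for log2 fold changes. Limits for 0 counts cover counting error only. Alternatives were DESeq2 1.42.0, limma-voom (limma 3.58.1), other scalings, other filters, leaving out single libraries, and a replicate block. The steps were tested on simulated data. Symbols came from an Ensembl name table, and positions and promoters from RefSeq. No transcript lengths were used, so levels are not compared between genes.

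The members and lists were chosen with earlier results of these data known. Genes named are all members, up to 3 called genes per direction of each list (largest fold change, at least 2 CPM in the higher group), or the 2 most abundant where none was called, 3 neighbours on each side of INA and NEFL, and the 5 genes nearest to each in pattern. TUBB, REST, SYP, CNTN2, CNP, RBFOX3, ENO2, SYT1 and VAMP2 were named after their values were seen. So were the other growth cone genes called lower, and markers given at or near 0. A few genes that the rule names are not reported here, though the counts include them.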

Additional observations from a re-analysis of the deposited data

How the results depend on the processing

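INA and NEFL kept their direction in each of the 14 other fits, on libraries that their choice had used. NEFM, TUBB3, PRPH, NES, GAP43 and UCHL1 kept theirs and their side of the threshold, with these exceptions. GAP43 lost its call without replicate 3 labelled KO, without each WT library (log2 fold changes -1.18 to -0.92 over all libraries left out in turn), and with the replicate block (-1.04, edgeR adjusted p = 0.0946). UCHL1 passed without replicate 1 labelled KO. PRPH was at -0.37 by limma-voom and ranged from -0.22 to 0.93, and NES from -0.24 to 0.088, with a library left out; none of these passed, and the cause was not tested. Testing only genes with at least 1 CPM in 3 libraries gave no value for PRPH and TUBB3.

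With a library left out, members called numbered 1 to 2 higher and 1 to 2 lower, all genes 401 to 4048 higher and 243 to 3927 lower, and genes of the 14 other lists 6 to 36 higher and 7 to 40 lower. The highest counts of all genes and of list genes came without replicate 1 labelled KO. The replicate block gave 1 member lower, 610 genes higher and 359 lower, and 6 list genes higher and 8 lower, against 10 and 17 without it. Testing each gene with a count gave 17 list genes higher. Deviations of same-numbered libraries from their group means correlated at -0.058, -0.029 and 0.0022. With 3 libraries per group, and replicate 1 labelled KO apart from its group, these values cannot decide whether the replicate numbers pair the libraries. Leaving out mitochondrial genes, an alternative added after the data were seen, changed no member's call. NEFH and STMN2 had too few counts for the test over all libraries with the filter on low counts. Without that filter they were tested, and by DESeq2 they were fitted, which need not give an adjusted p. Members called still numbered 1 higher and 2 lower in each of these fits. PRPH and TUBB3 have wide errors.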
